A study of Mus musculus with 246 samples.

Results

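The neuronal pentraxins are a family of 3 genes, Nptx1 (ENSMUSG00000025582.5), Nptx2 (ENSMUSG00000059991.8) and Nptxr (ENSMUSG00000022421.21). They were found by gene name among the 56691 genes of the count table, and all 3 passed the filter on low counts in each of the 6 brain regions. Nptx1 and Nptx2 encode secreted proteins, and Nptxr encodes a pentraxin that is anchored in the membrane. The proteins join into complexes that gather AMPA-type glutamate receptors at excitatory synapses. Nptx2, also known as Narp, is an immediate early gene, whose transcript rises when neurons are active, as do those of the Egr and Fos transcription factors. The family was chosen by its earlier known values in these data, namely its levels across regions and its response to social interaction. Those values are therefore given as a description without a test, and tests were kept for the comparisons between rearing and treatment conditions and for the relations across mice.

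The data were poly-A RNA sequencing of 6 regions from each of 41 adult male CD1 mice, an outbred strain, with 1 library per region and mouse. Pooled bilateral punches were taken from 2 cortical regions, namely the ACC (anterior cingulate) and the mPFC (medial prefrontal), and from 4 others, namely the vHipp (ventral hippocampus), the DMT (dorsomedial thalamus), the BLA (basolateral amygdala) and the Nacc (shell of the nucleus accumbens). In the NoInteraction set 7 Ctrl_Veh, 7 ELA_Veh and 7 ELA_SAFit2 mice were taken without a social stimulus. In the SocialInteraction set 6 Ctrl_Veh, 7 ELA_Veh and 7 ELA_SAFit2 mice met an unfamiliar mouse for 10 min before the brains were collected. ELA (early life adversity) mice were reared with limited bedding and nesting from postnatal day 2 to 9, and Ctrl mice with standard material. SAFit2 is an inhibitor of FKBP51, a co-chaperone of the glucocorticoid receptor. It was given to the dam as a slow-release gel and reached the pups through milk, while the dams of both vehicle (Veh) groups received the empty gel. No group combined SAFit2 with control rearing, and the labels do not say which mice shared a litter, so p-values measure the spread between mice that may be siblings. Total counts per library lay between 20804247 and 43351424, and the lowest count of any member in any library was 188, for Nptx1.

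Region labels were checked against marker genes. All 6 striatal markers were highest in the Nacc and all 5 thalamic markers in the DMT, while 3 of 4 cortical markers were highest in the mPFC or ACC, 2 of 4 hippocampal markers in the vHipp and 1 of 2 amygdala markers in the BLA. Each striatal marker was second highest in the BLA. Summed choroid plexus markers ranged from 6.85 to 5238 CPM between BLA libraries. Summed olfactory bulb markers reached 170.6 CPM in the mPFC, where the set medians were 6.10 and 6.07 CPM. The part of such tissue in the members' levels was not tested. In the Nacc, 12 of 41 libraries (6 of each set) matched a different mouse, from a different group, than the one on their label when genes that differ between individuals were compared across regions. None of the libraries of the other 5 regions did. Most of the 12 Nacc libraries matched a mouse of the other set. The main Nacc values are therefore given with all libraries and with the 29 remaining ones. Libraries of one region were numbered in one block, except for 1 mPFC library that was numbered next to the ACC. The rest of the mPFC was numbered apart from the other regions. Region and library order therefore cannot be told apart in the comparisons of regions. In bulk tissue fewer cells of a type and less RNA per cell cannot be told apart.

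Levels are given as CPM, the counts of a gene scaled to a common library size, after TMM scaling over all libraries. Where genes are compared with each other they are divided by the length of the longest transcript of each gene, 5.217 kb for Nptx1, 2.536 kb for Nptx2 and 5.006 kb for Nptxr. Nptxr was the most abundant member per kilobase in every library. Nptx1 exceeded Nptx2 per kilobase in every library of 5 regions and in 0 of 41 libraries of the DMT. Nptxr overlaps the annotated gene Npcd, and its estimated counts were not whole in any library, so reads were divided between the 2 genes. Npcd took a median of 0.136% to 0.366% of the counts of both genes by region, and at most 1.05% in any library.

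Nptx1 had the widest range of levels between regions. The vHipp had the highest level, at 879 ± 122 CPM (mean ± SD, n = 41 mice), and the 41 libraries of the vHipp lay above those of every mouse in the ACC, at 530 ± 70.7 CPM. The ACC (530 CPM) and the mPFC (456 ± 106.6 CPM) were neighbours whose ranges overlapped, with the ACC higher in 29 of 41 mice. The BLA followed at 187 ± 69.3 CPM and the Nacc at 109 ± 47.2 CPM, with the BLA higher in 33 of 41 mice. The 29 matched Nacc libraries had a mean of 115.6 CPM. The DMT had 24.6 ± 19.2 CPM, and single mice ranged from 5.94 to 84.3 CPM. The mean of the vHipp was 35.8 times that of the DMT.

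Nptx2 was ordered differently. The ACC (62.7 ± 16.2 CPM), the DMT (62.1 ± 5.53 CPM) and the mPFC (59.6 ± 20.98 CPM) stood together at the top with the sets pooled, the ACC lying above the DMT in 19 of 41 mice and the DMT above the mPFC in 22. Within a set their order was clearer. In NoInteraction mice the DMT came first with 61.5 CPM, then the ACC with 50.7 and the mPFC with 42.18 CPM, the DMT lying above the ACC in 18 and above the mPFC in 19 of 21 mice. In SocialInteraction mice the means were 62.67 CPM for the DMT, 75.29 for the ACC and 77.83 for the mPFC, and the DMT lay above the ACC in 4 and above the mPFC in 3 of 20 mice. The BLA had 28.1 ± 7.33 CPM, lower than the mPFC in all 41 mice. The Nacc had 22.8 ± 9.50 CPM (23.41 CPM in the 29 matched libraries) and the vHipp, where Nptx1 was highest, had the lowest level at 15.9 ± 3.93 CPM. The ACC lay above the vHipp in all 41 mice with ranges that did not overlap, and its mean was 3.94 times higher. The spread between mice of the same group was smallest in the DMT, with an SD of 0.13 on the log2(CPM + 1) scale, and largest in the Nacc, with 0.58.

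Nptxr differed less by region outside the Nacc. Its mean was 1385 ± 199 CPM in the vHipp, 1230 ± 213 CPM in the mPFC, 1158 ± 316 CPM in the BLA and 1150 ± 184 CPM in the ACC, and the ranges of these 4 regions overlapped. The BLA lay above the ACC in 21 of 41 mice. The DMT had 828 ± 150 CPM and the Nacc 312 ± 174 CPM, the DMT being higher in all 41 mice. With the 29 matched libraries the Nacc mean was 338 ± 195 CPM.

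**Figure D1:**
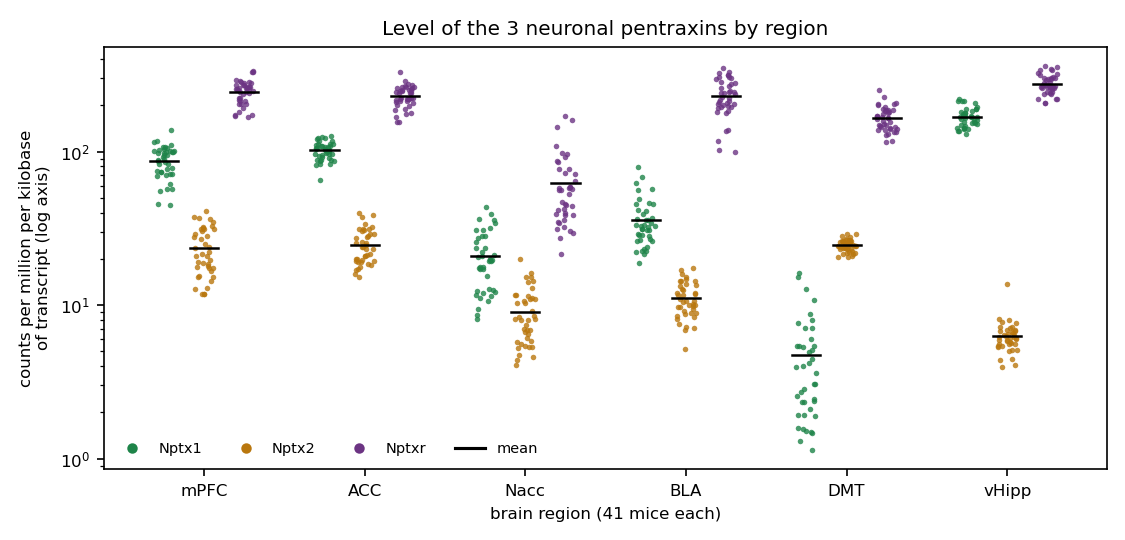
Level of Nptx1, Nptx2 and Nptxr in CPM per kilobase of transcript (log axis) in 6 brain regions, 1 point for each of 41 mice, with the mean as a black line. Nptxr is the highest in each region, and Nptx1 lies below Nptx2 in the DMT, where its mean is 4.71, and far above it in the vHipp, where its mean is 169.

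The composition of the family followed from these levels. Nptx2 made up a median of 13.4% of the summed per-kilobase level of the 3 genes in the DMT of NoInteraction mice and of 1.40% in the vHipp. Nptx1 made up 37.7% in the vHipp and 2.07% in the DMT. In SocialInteraction mice the Nptx2 share was 8.06% in the mPFC (range 6.003% to 10.97%), against 4.83% (range 3.89% to 6.31%) in NoInteraction mice. The corresponding medians in the ACC were 8.09% and 5.71%.

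SocialInteraction mice had more Nptx2 transcript in the mPFC, ACC and BLA. The matched Nacc libraries gave a log2 fold change near those of the ACC and BLA, with a larger SE. Nptx1 and Nptxr stayed near their NoInteraction levels. In the mPFC Nptx2 ranged from 29.7 to 56.4 CPM (median 43.9) in 21 NoInteraction mice and from 53.04 to 103.9 CPM (median 79.7) in 20 SocialInteraction mice. All but 1 of the 20 SocialInteraction mice lay above every NoInteraction mouse. The log2 fold change, SocialInteraction minus NoInteraction as the mean over the 3 conditions, was 0.88 ± 0.078 (SE), a fold change of 1.84.

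In the ACC Nptx2 ranged from 38.4 to 64.4 CPM (median 49.95) without and from 46.5 to 100 CPM (median 75.2) after social interaction, and 17 of 20 SocialInteraction mice lay above every NoInteraction mouse. The log2 fold change was 0.57 ± 0.067. In the BLA the ranges were 13.04 to 31.97 CPM (median 22.6) and 23.3 to 43.9 CPM (median 33.8), and 12 of 20 SocialInteraction mice lay above every NoInteraction mouse. The log2 fold change there was 0.56 ± 0.078.

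The vHipp and the DMT showed smaller differences. In the vHipp Nptx2 ranged from 10.1 to 18.4 CPM (median 14.4) in NoInteraction and from 11.3 to 34.8 CPM (median 16.0) in SocialInteraction mice, with overlapping sets and a log2 fold change of 0.23 ± 0.089. The DMT, a region with one of the highest Nptx2 levels, ranged from 52.1 to 73.8 CPM (median 61.4) and from 53.2 to 73.1 CPM (median 62.1). No SocialInteraction mouse lay above the highest NoInteraction mouse there, and the log2 fold change was 0.027 ± 0.041.

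In the Nacc the Nptx2 medians were 20.5 CPM (range 10.3 to 29.4) and 20.9 CPM (range 11.1 to 50.5), and the log2 fold change was 0.29 ± 0.18. Without the 12 libraries that matched a different mouse, the medians were 20.2 and 27.5 CPM and the log2 fold change was 0.52 ± 0.20. The summed level of 5 excitatory neuron markers, which followed Nptx2 closely across mice in this region, ranged from 899 to 3280 CPM (median 2283) in NoInteraction and from 1441 to 3158 CPM (median 2023) in SocialInteraction mice. With the mean log2 levels of excitatory neuron and oligodendrocyte markers as covariates, the Nacc value was 0.24 ± 0.096. This fit and the marker sums hold all Nacc libraries, so the value without covariates to set beside it is 0.29.

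The same covariates left the other Nptx2 values near those above, at 0.88 ± 0.071 in the mPFC, 0.565 ± 0.064 in the ACC and 0.54 ± 0.074 in the BLA. The summed excitatory markers had medians of 4740 CPM without and 4722 CPM after social interaction in the mPFC, and 3048 and 3333 CPM in the BLA. The summed levels of 5 oligodendrocyte markers had medians of 1439 and 1278 CPM in the mPFC.

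**Figure D2:**
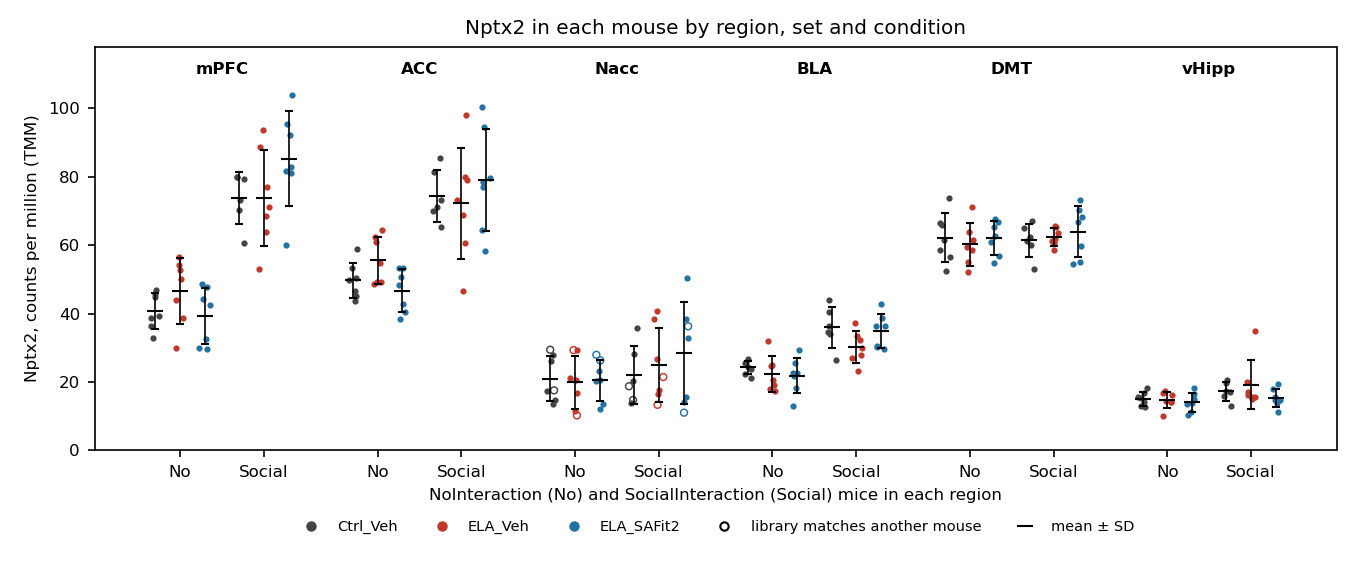
Nptx2 in CPM (TMM-scaled) in each mouse, by region, set (No, NoInteraction; Social, SocialInteraction) and condition (colours), with group means ± SD; open circles mark Nacc libraries that match another mouse. The SocialInteraction points lie higher in the mPFC (53.04 to 103.9 against 29.7 to 56.4), ACC and BLA, and the sets overlap in the DMT.

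Higher Nptx2 means after social interaction were seen in each rearing and treatment condition in the mPFC, ACC and BLA. They were also seen in each condition in the vHipp (1.087 to 1.303 times) and, with all libraries, the Nacc (1.045 to 1.381 times), with overlapping sets. In the DMT the ratios of means were 0.989 to 1.036. In the mPFC the means without and after social interaction were 40.7 ± 5.26 and 73.9 ± 7.66 CPM (SD) in Ctrl_Veh, 46.6 ± 9.60 and 73.7 ± 14.1 CPM in ELA_Veh and 39.3 ± 8.33 and 85.3 ± 13.9 CPM in ELA_SAFit2 mice. The sets did not overlap in Ctrl_Veh and ELA_SAFit2, while 6 of 7 ELA_Veh SocialInteraction mice lay above every ELA_Veh NoInteraction mouse. In the ACC the means were 49.7 and 74.4 CPM in Ctrl_Veh, 55.6 and 72.3 CPM in ELA_Veh and 46.75 and 78.99 CPM in ELA_SAFit2 mice, again without overlap in Ctrl_Veh and ELA_SAFit2. In the BLA only the ELA_SAFit2 sets did not overlap, by a narrow gap, ranging from 13.04 to 29.3 CPM and from 29.6 to 42.9 CPM. There 5 of 6 Ctrl_Veh and 3 of 7 ELA_Veh SocialInteraction mice lay above every NoInteraction mouse of their condition. Overlap of the sets was not counted over all genes, here or for the pooled sets above. It therefore only describes Nptx2 and does not compare the conditions.

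Nptx1 and Nptxr had log2 fold changes between -0.003 and 0.20 in all 6 regions, with overlapping sets in each. The largest Nptxr value was 0.15 ± 0.077 in the DMT, where its median was 775 CPM without and 857 CPM after social interaction. For Nptx1 in the mPFC, where Nptx2 differed most, the medians were 408 and 503 CPM, with ranges of 235 to 614 and 238 to 719 CPM, and the log2 fold change was 0.10 ± 0.10. With the counts of the 6 regions of each mouse summed, the log2 fold change was 0.45 ± 0.038 for Nptx2, 0.052 ± 0.041 for Nptx1 and 0.080 ± 0.044 for Nptxr. These sums hold the mismatched Nacc libraries under the mouse of their label, and without the Nacc the values were 0.46 ± 0.0385, 0.054 ± 0.044 and 0.085 ± 0.0497.

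The Egr and Fos families were set beside the pentraxins as other activity-regulated genes. Their lists were chosen with earlier results of these data known, which the p-values below do not allow for. They encode transcription factors, and the Jun proteins are the dimer partners of the Fos proteins. Their response was tested with edgeR's quasi-likelihood test, Benjamini-Hochberg adjusted over all protein-coding genes of the region that passed the filter, and a gene was called at an adjusted p under 0.05. Of all genes tested, the share called was 7.4% (mPFC), 4.15% (ACC), 1.49% (BLA), 1.6% (DMT), 1.21% (vHipp) and 0% (Nacc). With regions summed it called 8.56%. Of 4 Egr genes, only Egr3 was called in the mPFC, ACC, BLA and DMT, and none in the Nacc or vHipp. Of the 7 Fos and Jun genes, Fosb and Fosl2 were called in the mPFC, ACC and DMT and Fosb alone in the BLA and vHipp. All calls were higher in SocialInteraction mice. The Nacc fit held all libraries, mismatched ones included. Its lack of calls therefore does not show a lack of response. Fosl1 was too low to be tested in any region, as was Egr2 in the DMT.

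In the mPFC the response of Nptx2 was close in size to those of Egr3 and Fosb. Egr3 ranged from 86.3 to 184 CPM (median 120) without and from 151 to 304 CPM (median 230) after social interaction, and its log2 fold change of 0.89 ± 0.10 stood beside 0.88 for Nptx2. Fosb had 0.85 ± 0.14 and Fosl2 0.59 ± 0.11. Fos itself varied widely between mice of one set, from 1.72 to 62.0 CPM in NoInteraction mice, and its log2 fold change was 0.31 ± 0.36, which was not called. Egr1 likewise had 0.27 ± 0.18 in the mPFC and was not called.

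The order of regions differed between Nptx2 and the transcription factors. In the BLA the log2 fold change of Nptx2 was 0.56, against 0.285 ± 0.049 for Egr3 and 0.44 ± 0.091 for Fosb. In the DMT it was 0.027, against 0.70 ± 0.17 for Egr3 and 0.81 ± 0.12 for Fosb. The thalamic levels of both transcription factor genes were low, with medians of 3.04 CPM for Egr3 and 2.03 CPM for Fosb in NoInteraction mice. In the Nacc with the 29 matched libraries Egr3 had 0.13 ± 0.081 and Fosb 0.21 ± 0.16, neither called, beside 0.52 ± 0.20 for Nptx2. Differences in response between genes were not tested, since the response of Nptx2 belonged to the values the family was chosen by.

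The region difference of the response was tested for the 4 Egr genes and the 7 Fos and Jun genes, which are no members, in each of 6 regions. These lists were also chosen with earlier results of these data known, and the p-values do not allow for that choice. The edgeR fit held the libraries of all regions and does not use that 6 libraries come from the same mouse. It called Egr3 in the mPFC, vHipp and Nacc and Fosb in the Nacc, and no other gene of the lists. The Egr3 response in the mPFC exceeded the mean of the other 5 regions by 0.54 ± 0.096 (adjusted p = 0.00024), in a comparison that called 0.155% of genes. In the vHipp it was lower by -0.45 ± 0.097 (adjusted p = 0.022, 0.0403% of genes called). The Egr3 differences in the ACC (0.24 ± 0.096), BLA (-0.18 ± 0.096) and DMT (0.32 ± 0.13) were not called. The Nacc value was -0.47 ± 0.096 (adjusted p = 0.038, 0.0115% of genes called), and without the mismatched libraries it was -0.39 ± 0.11 and was not called (adjusted p = 1). With the mouse number of the label as a block, edgeR gave 0.55 ± 0.092 in the mPFC (adjusted p = 7.4e-05, 0.311% of genes called), -0.45 ± 0.093 in the vHipp (adjusted p = 0.013, 0.0403% of genes called) and -0.46 ± 0.093 in the Nacc (adjusted p = 0.0031, 0.236% of genes called). The block put the mismatched Nacc libraries under the mouse of their label, and it was not run without them. Its Nacc value therefore adds nothing to the value without the block. For Nptx2 the corresponding descriptive values, without the block, were 0.54 ± 0.11 in the mPFC, where its response was largest, and -0.48 ± 0.11 in the DMT, where it was smallest.

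**Figure D3:**
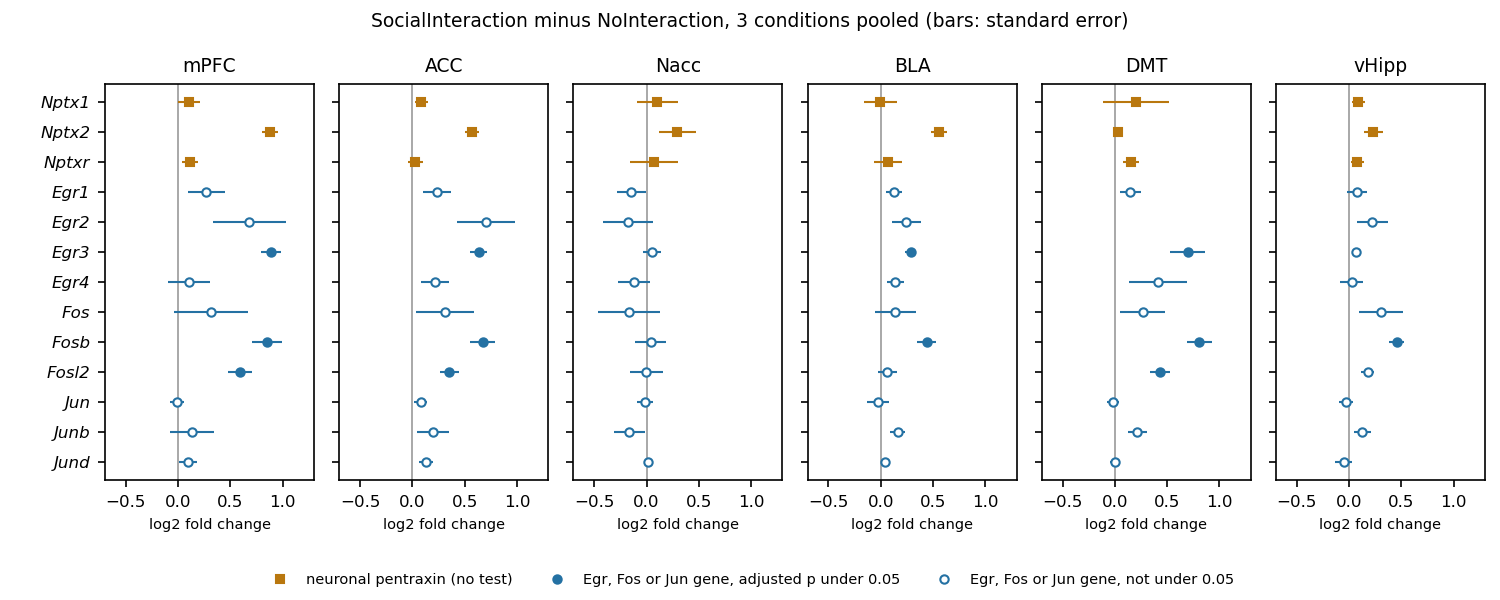
Log2 fold change, SocialInteraction minus NoInteraction with the 3 conditions pooled, of the neuronal pentraxins (squares, not tested) and of Egr, Fos and Jun genes (circles, filled where the adjusted p was under 0.05) in each region; bars are standard errors, and genes under the count filter are absent. Nptx2 lies beside Egr3 in the mPFC (0.88 and 0.89) and at 0.027 in the DMT, where Egr3 is at 0.70.

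A list of 15 genes, whose products act with the neuronal pentraxins or are pentraxins themselves, gave no calls for the social response without covariates. It held the AMPA receptor subunits Gria1 to Gria4, the synaptic organisers C1ql2 and C1ql3, the complement chains C1qa, C1qb and C1qc, Adam17, whose protease cleaves the membrane anchor of Nptxr, Pvalb, which marks interneurons on which Nptx2 acts, and the other pentraxins Crp, Apcs, Ptx3 and Ptx4. Between 12 and 13 of them were tested in each region, and edgeR called 0 for the social response in any region, with 10 of 76 tests at an unadjusted p under 0.05, a share of 13.2% that was also that of all gene tests in the 6 regions. Median log2 fold changes of the list were at most 0.054, beside medians of all genes between -0.0034 and 0.0018. The AMPA receptor genes Gria1, Gria2, Gria3 and Gria4 had log2 fold changes between -0.051 and 0.068 in every region. The 3 complement chains had positive values in all 6 regions, from 0.028 for C1qb in the Nacc to 0.16 for C1qc in the BLA. With the marker scores as covariates these 3 genes were called in the BLA, C1qa at 0.17 ± 0.041 (adjusted p = 0.018), C1qb at 0.195 ± 0.049 (adjusted p = 0.020) and C1qc at 0.21 ± 0.049 (adjusted p = 0.015), in a fit that called 3.98% of genes.

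Rearing and treatment conditions were compared to ask whether adversity or its combination with SAFit2 altered the family in adulthood. None of the 3 genes was called in any comparison. With both sets pooled, the 3 pairs of conditions in 6 regions gave 54 tests of members, 0 of them called and 0 at an unadjusted p under 0.05. Of all gene tests in those 18 comparisons, 0.00421% were called and 4.73% had an unadjusted p under 0.05. DESeq2 also called 0. Within sets, 108 tests gave 0 calls and 2 at an unadjusted p under 0.05 (0.000526% of all gene tests called, 4.38% at an unadjusted p under 0.05). Both were Nptx2 in ELA_SAFit2 against ELA_Veh mice, at -0.255 ± 0.12 in the ACC of NoInteraction mice and -0.33 ± 0.15 in the vHipp of SocialInteraction mice, where 1 ELA_Veh mouse stood apart at 34.8 CPM. Without that mouse, left out after its value was seen, the vHipp difference was -0.12 ± 0.13. With the 6 regions of each mouse summed, 33 tests gave 0 calls and 2 at an unadjusted p under 0.05 (0.00418% of all gene tests called, 5.04% at an unadjusted p under 0.05). Without the Nacc the summed counts gave 0 calls and 1 at an unadjusted p under 0.05.

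The pooled Nptx2 estimates were small. For ELA_Veh against Ctrl_Veh they lay between -0.19 ± 0.096 in the BLA and 0.099 ± 0.096 in the mPFC. In the mPFC the 95% interval ran from -0.096 to 0.29. For ELA_SAFit2 against ELA_Veh the lowest was -0.20 ± 0.11, for the vHipp (-0.094 ± 0.088 without the mouse at 34.8 CPM), and the highest 0.12 ± 0.21, for the Nacc. With regions summed, the interval for ELA_Veh against Ctrl_Veh was -0.086 to 0.10, and that for ELA_SAFit2 against ELA_Veh -0.056 to 0.13.

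The largest estimate for any member with the sets pooled was that of Nptx1 in the DMT. ELA_SAFit2 exceeded Ctrl_Veh there by 0.71 ± 0.39 on the log2 scale (adjusted p = 0.76), with a 95% interval from -0.076 to 1.499. This is the region where Nptx1 was lowest and varied most, and the within-group SD was 0.997 on the log2(CPM + 1) scale. Nptxr estimates lay between -0.10 and 0.20 for every pair of conditions and region with the sets pooled, and between -0.31 and 0.49 within sets. A region difference of the condition effects was called for 0 of 36 tests of members (0.00144% of all gene tests called, 3.10% at an unadjusted p under 0.05), with 1 at an unadjusted p under 0.05, for Nptx1 in the DMT.

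**Figure D4:**
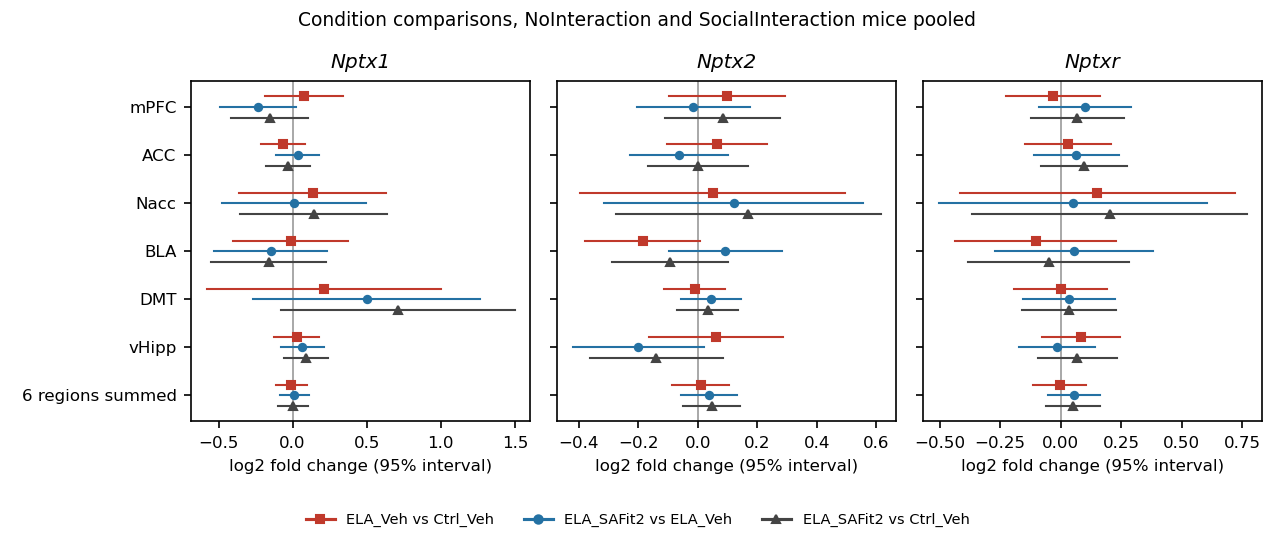
Log2 fold change with its 95% interval for 3 pairs of conditions, with NoInteraction and SocialInteraction mice pooled, for Nptx1, Nptx2 and Nptxr in 6 regions and with the counts of the 6 regions summed; the horizontal scale differs between panels. All intervals include 0, and the widest are those of Nptx1 in the DMT, up to 1.499.

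Whether the social response itself differed between conditions was tested as an interaction. None of 36 tests of members was called, 0.0116% of all gene tests in these 12 comparisons were, and 2 members' tests had an unadjusted p under 0.05, a share of 5.56% beside 4.38% of all gene tests. Both were Nptx2 in the cortex, for ELA_SAFit2 against ELA_Veh. In the mPFC the response was 1.12 ± 0.13 in ELA_SAFit2 and 0.66 ± 0.13 in ELA_Veh mice, a difference of 0.455 ± 0.19 (edgeR, adjusted p = 1). In the ACC the responses were 0.755 ± 0.12 and 0.37 ± 0.12, a difference of 0.385 ± 0.16 (edgeR, adjusted p = 1). With regions summed the difference was 0.22 ± 0.092 (edgeR, adjusted p = 1), and 0.22 ± 0.093 without the Nacc. For ELA_Veh against Ctrl_Veh the differences in the mPFC and ACC were -0.19 ± 0.19 and -0.21 ± 0.17 (edgeR, adjusted p = 0.86 and 0.57). Both differences use the same ELA_Veh mice.

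The members were then followed across mice within groups, as deviations from the mean of each of the 6 groups on the log2(CPM + 1) scale. For 15 relations in 6 regions, 34 of 90 passed at an adjusted p under 0.05 (permutation test with 100000 permutations within groups, two-sided, Benjamini-Hochberg over the 90). Of 36 relations with the Egr list or the Fos and Jun list, 10 passed, all positive, and 6 of these were in the Nacc. Adding the marker scores of excitatory neurons and oligodendrocytes as covariates left 3 of the 36. Without the mismatched Nacc libraries 4 of the 36 passed, and with a pseudocount of 0.1 CPM 5.

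Mice with more Nptx2 than the mean of their group had more Egr transcripts in 3 regions. In the mPFC Pearson's r was 0.41 (permutation p = 0.014, adjusted 0.044, n = 41) and Spearman's rho 0.45 (permutation p = 0.0077). In the BLA r was 0.465 (permutation p = 0.0079, adjusted 0.032) and rho 0.34 (permutation p = 0.048), and in the Nacc r was 0.57 (permutation p = 0.00017, adjusted 0.0010) and rho 0.56 (permutation p = 0.00026). Without the 2 mice farthest from the median of the Egr list these values of r were 0.35, 0.34 and 0.50. With the marker scores as covariates r was 0.485 in the BLA and 0.45 in the Nacc, both with an adjusted permutation p = 0.049, and in the mPFC it was 0.35 (adjusted permutation p = 0.14). Nptxr followed the Egr list in the mPFC at an r of 0.49 (permutation p = 0.0011, adjusted 0.0052), at 0.45 without the 2 farthest mice and at 0.43 with the covariates (adjusted permutation p = 0.049). For Nptx2 and the Egr list, r was 0.515 in the 29 matched Nacc libraries (adjusted permutation p = 0.010). In the DMT, where the sets had like Nptx2 levels, r of Nptx2 with the Egr list was -0.34 (permutation p = 0.051, adjusted 0.11).

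Nptxr followed the oligodendrocyte markers downwards. In the mPFC r was -0.80 and rho -0.785 (permutation p = 1e-05 and 2e-05, the first being the smallest that the permutations can give), and in the ACC r was -0.78 and rho -0.77 (permutation p = 1e-05 for each). The relation also passed in the BLA (r = -0.64) and the DMT (r = -0.59), and r was -0.033 in the vHipp. Without the 2 farthest mice r was -0.74 in the mPFC and -0.70 in the ACC. The summed level of the 5 oligodendrocyte markers varied widely between mice of the ACC, from 748 to 6658 CPM in NoInteraction and from 1307 to 5833 CPM in SocialInteraction mice. The part of tissue composition in the relation was not tested.

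Nptx1 followed the excitatory neuron markers, with r of 0.94 in the Nacc, 0.77 in the BLA and 0.76 in the mPFC (adjusted permutation p = 7.5e-05, 7.5e-05 and 0.00021, n = 41), and rho of 0.93, 0.76 and 0.66. In the ACC r was 0.40 (adjusted permutation p = 0.048), and 0.22 without the 2 farthest mice. In the vHipp, its region of highest level, r was -0.40 (adjusted permutation p = 0.036) and rho -0.39 (adjusted permutation p = 0.052), and in the DMT r was 0.004. Unlike Nptxr, Nptx1 rose with the oligodendrocyte markers in the mPFC (r = 0.425, adjusted permutation p = 0.027) and ACC (r = 0.46, adjusted permutation p = 0.038). Without the 2 farthest mice these were 0.32 and 0.28. In the Nacc the 3 members moved together, with r between 0.86 and 0.935 for each pair, and each followed the excitatory markers at 0.86 or above. In the 29 matched libraries the pairs had r between 0.91 and 0.95. With the marker scores as covariates, only the pair of Nptx1 and Nptxr still passed there (r = 0.55, adjusted permutation p = 0.015).

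The pairs of members differed by region. Nptx1 and Nptxr moved together in the vHipp (r = 0.77, rho = 0.76, adjusted permutation p = 7.5e-05) and the BLA (r = 0.73), and against each other in the ACC (r = -0.43, adjusted permutation p = 0.048, without the 2 farthest mice -0.29). Nptx2 and Nptxr moved together in the mPFC (r = 0.615, rho = 0.61, adjusted permutation p = 0.00064) and the ACC (r = 0.42, adjusted permutation p = 0.036). Nptx1 and Nptx2, the secreted members, had r between -0.060 and 0.37 outside the Nacc, and none of these passed.

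**Figure D5:**
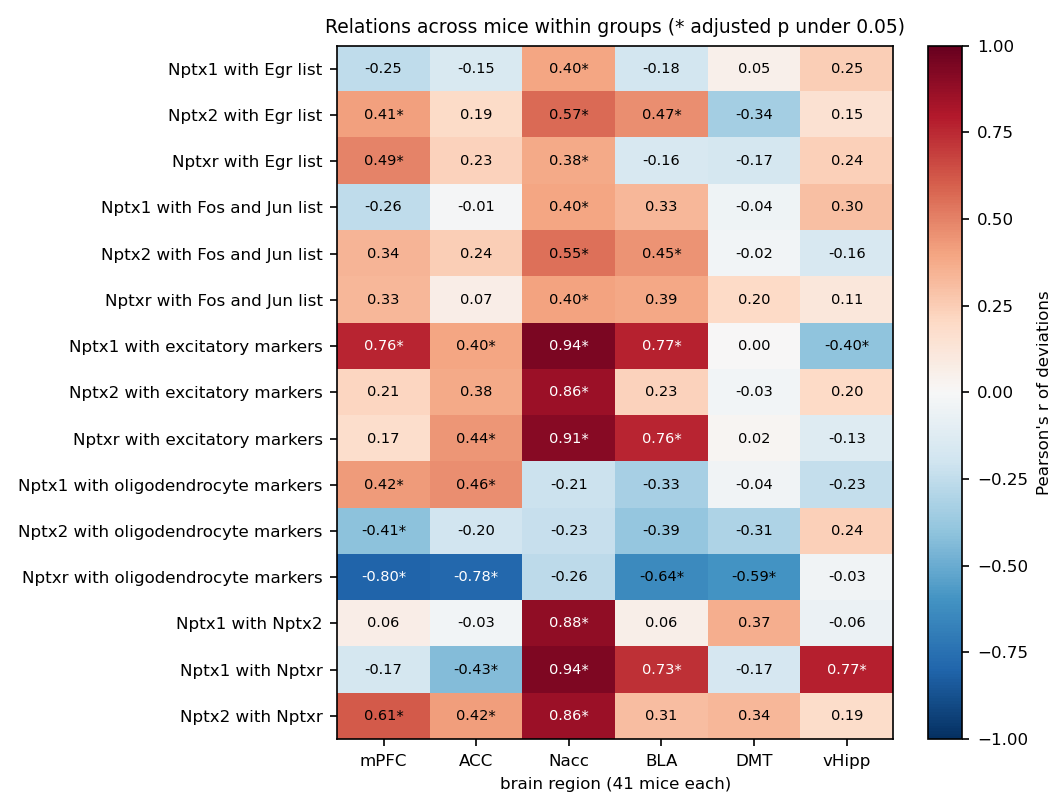
Pearson's r across 41 mice, after removal of group means, of each neuronal pentraxin with the mean level of 4 gene lists and of the members with each other, in 6 regions; stars mark an adjusted permutation p under 0.05. Values near 0.9 fill the Nacc column for excitatory markers and for pairs of members, and Nptxr is at -0.80 and -0.78 with oligodendrocyte markers in the mPFC and ACC.

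The same mouse did not carry high or low values through all regions. Over the 15 pairs of regions, the deviations of 1 gene in the same mouse had a median r of 0.008 for Nptx2, -0.076 for Nptx1 and 0.17 for Nptxr, given as descriptions. The 5 pairs with the Nacc hold its mismatched libraries, and without these the medians were 0.008, -0.024 and 0.14. The highest values were between the mPFC and ACC, at 0.63 for Nptx2 and 0.69 for Nptxr.

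Finally, the genes most like each member were listed among 15173 protein-coding genes tested in every region, as descriptions. Over the 36 group means of region, condition and set, which are dominated by region, Nptx1 was closest to Neurod2, a neuronal transcription factor gene (r = 0.996), then Rapgefl1 (0.994) and Fam131a (0.992). Nptx2 was closest to Cmc2 (0.982), Gpat4 (0.954) and Cars (0.949). Nptxr was closest to C1ql3 (0.974), Sec23a (0.965) and Pls3 (0.962). C1ql3 also stood in the list of genes whose products act with neuronal pentraxins, being a secreted synaptic organiser.

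Within groups, by the mean r over 6 regions, Nptx2 was closest to Bdnf, an activity-regulated neurotrophin gene (0.55, from 0.28 to 0.90 by region), then Rimbp2 (0.51) and Cacnb3 (0.51), which encode a presynaptic scaffold and a calcium channel subunit. Nptxr ranked 22 in that list (0.45), Egr3 47 (0.42) and Fosb 119 (0.38). Nptx1 was closest to Tmem178 (0.785), Islr2 (0.76) and Nck2 (0.75), and Nptxr to Lingo1 (0.79), Fgf13 (0.76) and Syn2 (0.76), the last a gene of synaptic vesicles. The libraries of a region share depth and tissue composition, which such values contain.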

How the data were processed

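Libraries were made from poly-A RNA (stranded kit, paired-end reads). The authors quantified reads with salmon and deposited a table of estimated counts per gene, and their processing notes name STAR, DESeq2 and the build GRCm39 (mm39). The deposited estimated counts were rounded to whole numbers. Total counts of 20804247 to 43351424 per library set the counting precision.

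Genes entered the tests of a region if they were protein-coding, reached 100 counts over its libraries and were counted in 6 or more of them. Gene types and transcript lengths came from GENCODE M21, matched by identifier for 52073 genes, or by symbol from RefSeq for 978 genes, and 3640 genes had no type. edgeR 4.0.16 in R 4.3.3 (TMM, glmQLFit, glmQLFTest) fitted 6 groups per region, the summed counts of 41 mice, and the libraries of all regions as 36 groups with the non-legacy quasi-likelihood fit. Benjamini-Hochberg adjustment ran over all genes of a comparison, with calls under 0.05. Fold changes are log2, with SE from the fit. Correlations used log2(CPM + 1) after removal of group means and 100000 permutations within groups (Python 3.11.15, NumPy 2.4.6). The relations were also computed with Spearman's rho.

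The mouse number pairs the 6 libraries of 1 mouse, and 60 genes that differ between individuals were compared across regions to check it, which left 29 matched Nacc libraries. Alternatives were DESeq2 1.42.0, its size factors, no filter, marker covariates, the mouse as a block, a pseudocount of 0.1 CPM and the Nacc without mismatched libraries. The block for the Egr and Fos genes, and the vHipp without the ELA_Veh mouse that lay highest in Nptx2, were added after the data were seen. Only the edgeR fit of 6 groups was tried on simulated data first, for the mPFC with 1 dispersion for all genes. With 200 of 15812 genes changed, it recovered 100% of log2 changes of size 1 and 98% of size 0.5, with 9 false calls. The other fits and the permutation tests were not tried on simulated data. Members and lists were chosen with earlier results of these data known. Named were the members, the Egr, Fos and partner lists and, for each member, the 3 genes of highest r by each of 2 measures. Promoter and protein sequences were not used here.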

Additional observations from a re-analysis of the deposited data

Results flagged for a closer look

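In 7 of 108 groups of mice 1 mouse lay far from the others of its group by Dixon's test, where chance flags about 1 in 20 groups. Nptx1 was at 412 CPM in the BLA of 1 Ctrl_Veh NoInteraction mouse (the next was 239 CPM). In the DMT it was at 66.6 CPM in 1 ELA_Veh SocialInteraction mouse (next 28.4 CPM) and at 84.3 CPM in 1 ELA_SAFit2 NoInteraction mouse (next 36.95 CPM). Nptx2 was at 34.8 CPM in the vHipp of 1 ELA_Veh SocialInteraction mouse (next 20.1 CPM). Nptxr was at 800.5 CPM in the Nacc of 1 ELA_Veh NoInteraction mouse (next 434 CPM). In 1 Ctrl_Veh SocialInteraction mouse Nptxr was the lowest of its group in the BLA, at 683 CPM (next 1210 CPM), and the highest in the vHipp, at 1637 CPM (next 1366 CPM).

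The social response differed between regions for 2 of the transcription factor genes, by a test of the difference itself in the fit over all libraries. Egr3 had a response 0.54 above the mean of the other regions in the mPFC, -0.47 in the Nacc and -0.45 in the vHipp. Fosb had -0.61 in the Nacc (edgeR, adjusted p = 0.043). With the mouse number of the label as a block, Fosb was also called in the mPFC, at 0.39 (edgeR, adjusted p = 0.0092). That fit held the mismatched Nacc libraries and was not run without them. Without the block, both Nacc values were not called without the mismatched libraries, at -0.39 for Egr3 and -0.43 for Fosb, while Egr3 was still called in the mPFC and vHipp.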

How the results depend on the processing

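The counts of members called between conditions stayed at 0 under each alternative that was run, including DESeq2, other size factors, no filter on low counts, marker covariates and the Nacc without mismatched libraries. With the mouse number as a replicate block, the region differences of condition effects also gave 0 calls for the members, as without it. Marker covariates raised the members' within-set tests at an unadjusted p under 0.05 from 2 to 7 of 108. The share of all gene tests under these covariates is not given, so the rise cannot be read as particular to the members. Marker scores as covariates moved the count of partner genes called for the social response from 0 to 3, and the count of relations with Egr, Fos or other members that passed from 18 of 54 to 7 of 54. Under these covariates the relation of Nptxr with the Egr list in the Nacc turned from 0.375 to -0.057 (adjusted permutation p = 0.91). The number of all 90 relations that passed was 34, against 33 with DESeq2 size factors, 26 with a pseudocount of 0.1 CPM, 24 without the mismatched Nacc libraries and 25 with Spearman's rho. Among the single values of r under alternatives, 373 kept their direction and side of the threshold, 39 no longer passed and 1 newly passed, and the cause was not tested. The relation of Nptx2 with the Egr list in the mPFC was among those lost, with adjusted p = 0.050 by permutation at the lower pseudocount. Of the levels by region, 87 alternative values moved by less than the SD within groups, while NoInteraction libraries alone lowered Nptx2 to 42.18 CPM in the mPFC, 50.7 CPM in the ACC and 22.82 CPM in the BLA. The 75 alternative values of the members' social response moved by less than the spread between mice, among them Nptx2 in the Nacc, at 0.29 with all and 0.52 with matched libraries. That spread, an SD of 0.58 for Nptx2 in the Nacc, is much wider than the SE of the estimates. The rule therefore says little about how stable they are. Single mice were not left out in turn, since groups hold 6 or 7 mice. Depth limits the low Egr3 and Fosb levels in the DMT more than the members, whose lowest count was 188.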

Other observations

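Over the 36 group means of region, condition and set, Nptx1 and Nptx2 had r = -0.26, and Nptx1 and Nptxr 0.51. Fos was the transcription factor gene of the Egr, Fos and Jun lists whose group means lay nearest to those of Nptx2 (r = 0.89, rank 138 of 15173 genes), although within groups of mice it ranked 2112. Egr3 had r = -0.23 with Nptx2 over group means and 0.42 within groups. These are descriptions, and the 36 means hold only 6 regions.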
